A study of Mus musculus with 12 samples.

Results

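The BCL2 family regulators measured here were 10 genes chosen by symbol from the deposited array table, which holds 18138 gene symbols. All 10 were on the array, and all 10 were detected on enough arrays to be tested. They comprise 3 prosurvival genes (Bcl2, Bcl2l1 and Mcl1) and 7 death genes. Of the death genes, 5 are BH3-only genes (Bcl2l11, Bmf, Bid, Bbc3 and Bad) and 2 encode pore-forming effectors (Bax and Bak1).

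BCL2 family proteins decide whether the outer mitochondrial membrane stays intact. BAX and BAK form pores in it and release cytochrome c, which activates caspases. Prosurvival members hold BAX, BAK and BH3-only proteins in check, and BH3-only proteins relieve that hold or activate BAX and BAK directly. In the thymus the family sets the lifespan of CD4+CD8+ cells: BCL-XL, encoded by Bcl2l1, and MCL1 keep them alive, and BIM, encoded by Bcl2l11, removes cells with self-reactive receptors.

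RNA was measured on 1-colour arrays in sorted thymic T cells from Caph2nes/nes mice and from Caph2+/+ mice, all on C57BL6/J, aged 8 to 12 weeks and labelled as equal parts male and female. The nes allele carries the I15N missense change in Caph2, listed on the array as Ncaph2, a subunit of the condensin II complex that compacts chromosomes before division. Cells were CD4+CD8+ with a low forward scatter gate (FSClo) and were sorted on CD71, an iron-uptake receptor abundant on dividing cells. CD71-positive cells of mutants and of wild type, and CD71-negative cells of mutants and of wild type, made up 4 groups with 3 arrays each. The study's question was how the mutation changes RNA levels in matched cells. Whether each array stands for a different animal is not in the labels. P-values therefore reflect only how these samples scatter, and that scatter may be technical. The allele is carried in every cell of the animal, so nothing here separates its action inside thymocytes from its action elsewhere.

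Mean signal lay between 95.1 and 203 per array, and 5893 to 7415 genes were detected per array at a deposited detection p under 0.05. Both minima were on wild-type CD71-negative array 1. Of the genes that mark CD4+CD8+ thymocytes, 9 to 10 of 12 were detected on all 3 arrays of each group, and Cd8a was detected on none. Ncaph2 RNA was close between genotypes (log2 difference -0.04 ± 0.16 in CD71-positive and -0.11 ± 0.16 in CD71-negative cells, mutant minus wild type, SE). A missense change need not alter RNA level, so this does not check the labels. Tfrc, which encodes CD71, was higher in CD71-positive cells by 1.30 ± 0.28 in mutants and 1.15 ± 0.28 in wild type (adjusted p = 0.0068 and 0.014, limma). Levels below are normalized log2 signals, differences are on the log2 scale with the limma standard error, and called means an adjusted p under 0.05 over the 8247 genes tested. Genes far from detection sit at 5.39 on this scale, and 7 members had their highest group mean within 1 of it, so their differences are understated. Signals of different genes are not compared with each other.

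CD71 status was the main axis along which the family varied. In mutants, Mcl1, Bcl2l1, Bcl2, Bbc3 and Bcl2l11 fell in CD71-positive relative to CD71-negative cells and Bid rose. In wild-type cells, Mcl1, Bcl2, Bcl2l11 and Bmf fell and Bid rose. That made 6 of 10 members called in mutants, where 28.8% of all genes tested were called (14.5% higher and 14.3% lower), and 5 of 10 in wild type, where 25.1% were called (12.0% higher and 13.1% lower). No member was called between genotypes in either subset.

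**Figure D1:**
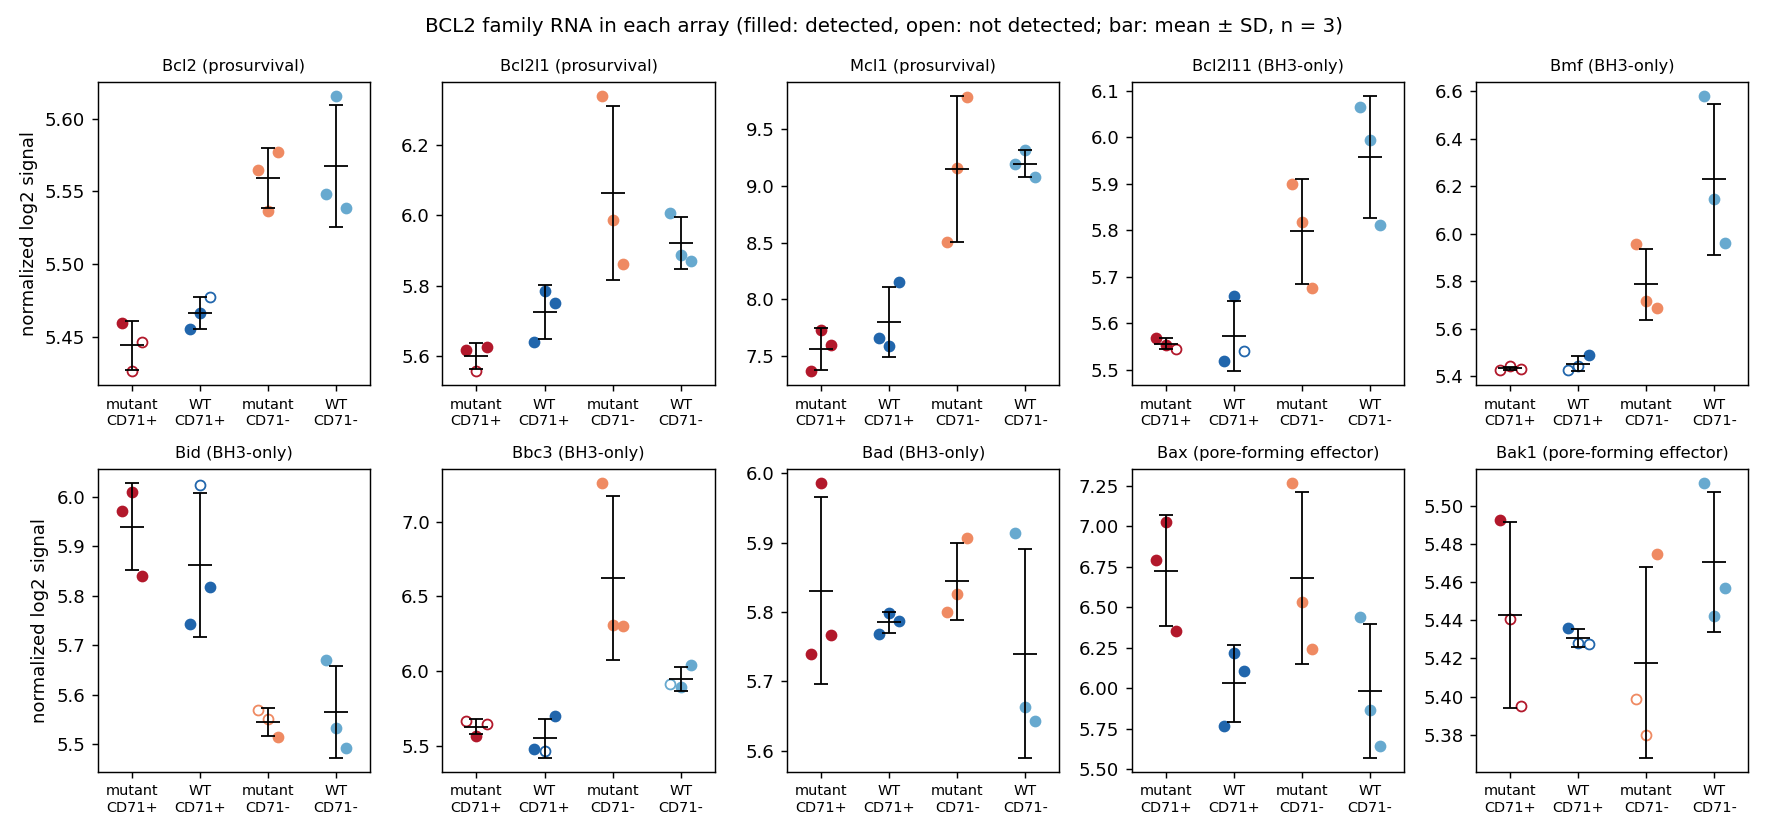
Normalized log2 signal of each BCL2 family gene on each of the 12 arrays, by group on the horizontal axis, with the mean ± SD of 3 arrays. Each panel has its own vertical scale. Mcl1, Bcl2, Bcl2l1, Bcl2l11, Bmf and Bbc3 sit lower in the CD71-positive groups than in the CD71-negative groups, and Bid sits higher. For Bax, mutant arrays lie above wild-type arrays in CD71-positive cells and overlap them in CD71-negative cells.

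Mcl1, whose short-lived product restrains BAK and BIM, had the widest range of the 10. Its level was 7.37, 7.73 and 7.60 in mutant and 7.66, 7.58 and 8.15 in wild-type CD71-positive cells, against 8.50, 9.16 and 9.79 in mutant and 9.19, 9.32 and 9.08 in wild-type CD71-negative cells. Every CD71-positive array was below every CD71-negative array. The difference was -1.59 ± 0.29 in mutants (3.01-fold lower, adjusted p = 0.0028) and -1.40 ± 0.29 in wild type (2.64-fold lower, adjusted p = 0.0062). In bulk RNA of this kind, fewer cells that express a gene and less RNA per cell cannot be told apart.

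Bcl2l1 values also separated by CD71, over a narrower range. Mutant CD71-positive arrays read 5.62, 5.56 and 5.63 and wild-type CD71-positive arrays 5.64, 5.78 and 5.75, while mutant CD71-negative arrays read 6.34, 5.99 and 5.86 and wild-type CD71-negative arrays 6.01, 5.89 and 5.87. No CD71-positive array reached a CD71-negative one. Its difference was -0.46 ± 0.10 in mutants (adjusted p = 0.0095). In wild type it was -0.20 ± 0.10 and did not pass (adjusted p = 0.22). The genotypes' CD71 differences were not shown to differ, since the test of that difference gave -0.27 ± 0.15 (adjusted p = 0.93, and -0.13 without mutant CD71-negative array 1). Fitted to the mutant arrays alone, the mutant difference missed the threshold (adjusted p = 0.054), and without mutant CD71-negative array 1 the wild-type difference passed it (adjusted p = 0.030).

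Bcl2, which sustains resting lymphocytes and is low in CD4+CD8+ thymocytes, stayed near the background. Its level was 5.46, 5.43 and 5.45 in mutant and 5.46, 5.47 and 5.48 in wild-type CD71-positive cells, against 5.56, 5.54 and 5.58 in mutant and 5.55, 5.62 and 5.54 in wild-type CD71-negative cells. The gene was detected on 1 of 3 mutant and 2 of 3 wild-type CD71-positive arrays and on all 6 CD71-negative arrays. The differences of -0.12 ± 0.02 in mutants (adjusted p = 0.0062) and -0.10 ± 0.02 in wild type (adjusted p = 0.014) were small beside those of Mcl1. Cyclic loess normalization ended both calls (adjusted p = 0.068 in mutants and 0.052 in wild type). The wild-type call also went when wild-type CD71-positive array 1 was omitted (adjusted p = 0.053) and with only the wild-type arrays fitted (adjusted p = 0.081).

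The prosurvival genes were thus all below 0 in both genotypes, with 3 of 3 called in mutants and 2 of 3 in wild type. Of all genes tested, 14.3% were called lower in mutants and 13.1% in wild type. The prosurvival median CD71 difference was -0.46 in mutants and -0.20 in wild type, against -0.01 over all genes tested in each. The 250 bases upstream of the Mcl1 start are shown because Mcl1 had the largest difference. The sequence is from RefSeq (GRCm38.p6), 5′ to 3′ on the gene's plus strand (chr3:95658471-95658720). Capitals mark a GC box (GGGCGG), found on the opposite strand.
Mcl1: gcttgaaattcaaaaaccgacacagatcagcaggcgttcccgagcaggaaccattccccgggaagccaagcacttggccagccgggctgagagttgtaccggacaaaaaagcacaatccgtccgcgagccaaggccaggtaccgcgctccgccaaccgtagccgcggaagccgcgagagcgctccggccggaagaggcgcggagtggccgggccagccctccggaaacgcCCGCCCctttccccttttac

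GC boxes, the sites of SP1-type factors, were found upstream of 7 members, at 10 of the 18 starts listed for all 10 members, where 32.7% of all 32851 listed mouse starts had one. Member windows held 47.6% to 81.6% G and C, against a median of 52.4% over all starts. Shares at equal G and C content were not compared. Starts of 1 gene are not separate units, and Bbc3 windows 2 and 3 overlap. A GC box match describes the letters of the window and does not show binding.

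BH3-only genes did not move as a block. Bcl2l11 and Bmf, whose products BIM and BMF sense growth factor loss and cytoskeletal stress, were lower in CD71-positive cells, as was Bbc3. Bid ran the other way and Bad stayed level. By count, 1 rose, 2 fell and 2 were not called in each genotype. Of all genes tested, 14.5% rose and 14.3% fell in mutants, and 12.0% rose and 13.1% fell in wild type. The BH3-only genes that fell were Bcl2l11 and Bbc3 in mutants and Bcl2l11 and Bmf in wild type.

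Bcl2l11 read 5.569, 5.554 and 5.546 in mutant and 5.519, 5.660 and 5.540 in wild-type CD71-positive cells, against 5.900, 5.819 and 5.677 in mutant and 6.066, 5.995 and 5.812 in wild-type CD71-negative cells. The subsets did not overlap in either genotype. Its CD71 difference was -0.24 ± 0.07 in mutants (adjusted p = 0.036) and -0.38 ± 0.07 in wild type (adjusted p = 0.0045). The mutant call did not survive leaving out any 1 of the 3 mutant CD71-positive arrays, nor array 1 or 2 of the mutant CD71-negative group (adjusted p = 0.079 to 0.11). It was also lost with cyclic loess (adjusted p = 0.16) and with every gene on the array tested (adjusted p = 0.068).

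Bmf had the largest BH3-only difference in wild type. It was detected on 0 of 3 mutant and 1 of 3 wild-type CD71-positive arrays, at 5.43, 5.44 and 5.43 in mutants and 5.42, 5.44 and 5.49 in wild type. All 6 CD71-negative arrays detected it, at 5.96, 5.71 and 5.69 in mutants and 6.58, 6.15 and 5.96 in wild type. In wild-type CD71-positive cells it fell by 0.78 ± 0.14 on the log2 scale (adjusted p = 0.0027). Since no mutant CD71-positive array detected Bmf, its mutant difference is a bound of at least 1.28-fold lower, and it did not pass (adjusted p = 0.081). It passed, for example, when array 1 or 3 of the wild-type CD71-negative group was omitted (adjusted p = 0.0079 and 0.039), which enter through the shared estimate of spread.

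Bbc3, encoding PUMA, a BH3-only protein induced by p53 and by FOXO3, showed its highest values in mutant CD71-negative cells. Its level was 5.66, 5.57 and 5.65 in mutant and 5.48, 5.47 and 5.70 in wild-type CD71-positive cells, against 7.26, 6.31 and 6.30 in mutant and 5.91, 5.89 and 6.04 in wild-type CD71-negative cells. Bbc3 was detected on 1 of 3 mutant and 2 of 3 wild-type CD71-positive arrays. In CD71-negative cells it was detected on 3 of 3 mutant and 2 of 3 wild-type arrays. CD71-negative arrays were above CD71-positive arrays in both genotypes, and mutant CD71-negative array 1 stood above all others after normalization. Its deposited Bbc3 signal was the lowest of its group (212 against 228 and 225). That array was also the dimmest of its group, with a mean signal of 136 against 182 and 181. In mutants the Bbc3 level fell by 1.00 ± 0.22 on the log2 scale in CD71-positive cells (adjusted p = 0.0084). The wild-type difference was -0.40 ± 0.22 and did not pass (adjusted p = 0.23), except under 5 alternatives. These were the signal without background correction (adjusted p = 0.031), the authors' processed values (adjusted p = 0.036), wild-type arrays alone (adjusted p = 0.029), leaving out mutant CD71-negative array 1 (adjusted p = 0.0031) and background set from dim genes (adjusted p = 0.0055). The mutant call was lost when mutant arrays were fitted alone (adjusted p = 0.058).

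Bid, whose product is cut by caspase 8 and links death receptors to mitochondria, was called higher in CD71-positive cells of both genotypes. It read 5.97, 6.01 and 5.84 in mutant and 5.74, 6.02 and 5.82 in wild-type CD71-positive cells, against 5.57, 5.55 and 5.51 in mutant and 5.67, 5.53 and 5.49 in wild-type CD71-negative cells. The subsets did not overlap. Bid was detected on 3 of 3 mutant and 2 of 3 wild-type CD71-positive arrays. In CD71-negative cells it was detected on 1 of 3 mutant and 3 of 3 wild-type arrays. The highest wild-type CD71-positive value, 6.02, came from array 2, which did not detect the gene. The gene rose by 0.39 ± 0.08 in mutants (1.31-fold, adjusted p = 0.0041) and by 0.30 ± 0.08 in wild type (1.23-fold, adjusted p = 0.020). In wild type it did not pass once array 2 or 3 of the CD71-negative group was omitted (adjusted p = 0.062 and 0.061) and with wild-type arrays fitted alone (adjusted p = 0.088).

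Bad, a BH3-only protein that growth factor signalling phosphorylates and keeps in the cytosol, was detected on all 12 arrays at 5.64 to 5.99. Its CD71 difference was -0.01 ± 0.08 in mutants (95% interval -0.20 to 0.17) and 0.05 ± 0.08 in wild type (95% interval -0.14 to 0.23). The groups overlapped throughout.

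Upstream sequence of Bcl2l11 and Bbc3 is shown as an example chosen after their values were seen. They are the BH3-only genes called lower in mutant CD71-positive cells. Each carries the FOXO site GTAAACA within 250 bases of a listed start, and their other listed starts lack it. The match does not show binding, and the part of FOXO factors in these differences was not tested. Of the 18 listed starts of members, 2 had this site, and 3.17% of all starts did. The windows are the first listed start of Bcl2l11 on the plus strand (chr2:128125788-128126037) and the second of Bbc3 on the plus strand (chr7:16310011-16310260), with the site in capitals. In Bbc3 it lies on the opposite strand.
Bcl2l11: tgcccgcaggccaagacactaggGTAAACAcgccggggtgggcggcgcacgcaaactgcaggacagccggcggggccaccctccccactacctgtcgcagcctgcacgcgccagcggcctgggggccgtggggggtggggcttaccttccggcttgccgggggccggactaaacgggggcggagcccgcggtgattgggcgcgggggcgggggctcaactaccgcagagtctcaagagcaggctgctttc
Bbc3: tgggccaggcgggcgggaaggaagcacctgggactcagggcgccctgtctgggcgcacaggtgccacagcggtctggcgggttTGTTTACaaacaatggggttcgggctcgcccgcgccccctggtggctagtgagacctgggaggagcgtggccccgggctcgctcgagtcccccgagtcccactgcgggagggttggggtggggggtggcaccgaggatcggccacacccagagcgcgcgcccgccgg

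The effectors showed no CD71 difference that passed. Bax, the effector that moves from cytosol to mitochondria, differed between subsets by 0.04 ± 0.30 in mutants (95% interval -0.64 to 0.73) and 0.05 ± 0.30 in wild type (95% interval -0.63 to 0.73). Those intervals are wide and do not show equal levels. Bak1, encoding the effector that resides on mitochondria, was detected on 1 of 3 arrays in 3 groups and on 3 of 3 wild-type CD71-negative arrays. All its 12 values lay between 5.38 and 5.51, at the background, so it gives little information on either comparison. Its mutant difference of 0.03 ± 0.03 passed with array weights (adjusted p = 0.024) and under no other alternative.

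**Figure D2:**
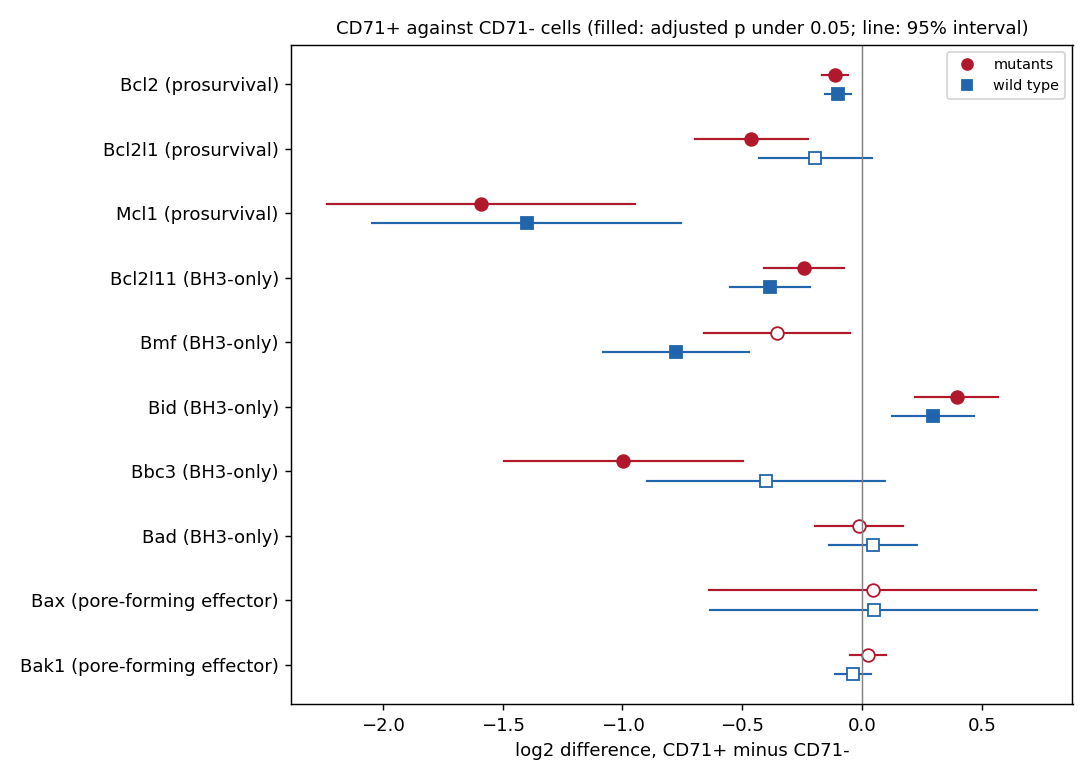
Log2 difference, CD71-positive minus CD71-negative, for each BCL2 family gene in mutants (circles) and wild type (squares), with 95% intervals. Filled symbols have an adjusted p under 0.05 and open symbols do not. The 3 prosurvival genes lie left of 0, Bid lies right of it in both genotypes, and Bad, Bax and Bak1 lie near it.

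Set side by side, the 7 death genes had a median CD71 difference of -0.01 in mutants and -0.04 in wild type. For the 3 prosurvival genes the medians were -0.46 and -0.20. The death medians were the values of Bad in mutants and of Bak1, at background, in wild type. Both prosurvival medians were values of Bcl2l1. Differences near background are understated, which limits setting these medians side by side. Among the death genes, the 5 BH3-only genes alone had medians of -0.24 in mutants and -0.38 in wild type, with genes on both sides of 0. In each genotype 1 of 7 death genes was called higher and 2 lower. Over all genes tested, 14.5% were called higher and 14.3% lower in mutants, and 12.0% and 13.1% in wild type. The members' arrays did not overlap between subsets for 7 of 10 genes in mutants, where 46.9% of all genes tested had arrays that did not overlap, and for 8 of 10 in wild type, where 39.7% did. With so few genes and a choice of members made with earlier results known, these counts describe the family and carry no test.

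Other cells and states moved with CD71 as well. Of 10 proliferation markers, 8 rose in CD71-positive cells of each genotype, with medians of 3.08 in mutants and 3.31 in wild type. Of 11 CD4+CD8+ markers tested, 9 fell and none rose in mutants (median -1.23), and 7 fell and 1 rose in wild type (median -1.12). Myeloid and dendritic markers rose for 7 of 10 genes tested in mutant CD71-positive cells (median 1.04) and for none in wild type (median 0.27, with 1 at an unadjusted p under 0.05). Their summed linear signal over 15 genes was 702 to 2479 in mutant and 504 to 668 in wild-type CD71-positive cells, and 421 to 433 in mutant and 401 to 403 in wild-type CD71-negative cells. Of these 15 genes, 8 were detected on all 3 arrays of mutant and 7 of wild-type CD71-positive cells, and 5 of mutant and 0 of wild-type CD71-negative cells. In mutant CD71-positive cells the 4 genes detected on no array were Lyz1, Lyzs, Itgax and Itgam. The part of these markers in the members' CD71 differences was not tested.

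Between genotypes, the members with the largest differences were Bax, Bbc3 and Bmf. None of the 10 was called by limma in CD71-positive cells or in CD71-negative cells, where 0.424% of all genes tested were called in each. At an unadjusted p under 0.05, 1 member was found in CD71-positive cells and 3 in CD71-negative cells, against 8.55% and 10.4% of all genes tested. Members whose arrays did not overlap numbered 2 in each subset, against 14.6% of all genes in CD71-positive and 14.5% in CD71-negative cells.

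Bax averaged 6.72 ± 0.34 in mutant and 6.03 ± 0.24 in wild-type CD71-positive cells, and 6.68 ± 0.53 in mutant and 5.98 ± 0.41 in wild-type CD71-negative cells (SD, n = 3 each). Its level was 6.79, 7.03 and 6.35 in mutant CD71-positive cells against 5.76, 6.22 and 6.11 in wild-type CD71-positive cells. It was 7.27, 6.53 and 6.24 in mutant CD71-negative cells against 6.44, 5.86 and 5.64 in wild-type CD71-negative cells. The genotypes did not overlap among CD71-positive arrays and overlapped by 1 array among CD71-negative ones. The difference was 0.70 ± 0.30 in CD71-positive cells (1.62-fold, adjusted p = 0.57, 95% interval 0.01 to 1.38) and 0.70 ± 0.30 in CD71-negative cells (1.62-fold, adjusted p = 0.47, 95% interval 0.02 to 1.38). Neither passed.

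Averaged over the subsets, the Bax difference was 0.70 ± 0.21 (95% interval 0.22 to 1.18, adjusted p = 0.19), where 0.909% of all genes tested were called. It passed under 1 of 22 alternatives, array weights (0.69, adjusted p = 0.027). The difference was above 0 under every alternative run, between 0.48 and 0.88 in CD71-positive cells and between 0.41 and 0.94 in CD71-negative cells. The lowest of these, 0.41, came without mutant CD71-negative array 1, whose deposited Bax signal (212) was the lowest of its group. Beside this, myeloid markers lay above 0 for 10 of 10 genes tested in CD71-positive cells (median 0.80, 7 at an unadjusted p under 0.05) and for 9 of 10 in CD71-negative cells (median 0.06, 0 at that p). CD4+CD8+ markers lay below 0 for 10 of 11 genes in CD71-positive cells (3 at that p) and for 4 of 11 in CD71-negative cells. Proliferation markers lay above 0 for 4 of 10 genes in CD71-positive cells (median -0.08, 1 at that p) and for 8 of 10 in CD71-negative cells (median 0.13, 2 at that p). In CD71-negative cells these 2 were Mcm5 at 0.73 ± 0.20 and Top2a at 0.69 ± 0.27, named after their values were seen. No gene of these 3 lists was called between genotypes, and their part in the differences of Bax, Bbc3 and Bmf was not tested.

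Bax is a p53 target, and its upstream window (chr7:45466899-45467148, minus strand) is shown with a p53 half-site in capitals. Of the 18 listed starts of members, 2 had such a match, in Bax and Bmf, and 7.13% of all starts did. A half-site match does not show binding, and the part of p53 in these differences was not tested.
Bax: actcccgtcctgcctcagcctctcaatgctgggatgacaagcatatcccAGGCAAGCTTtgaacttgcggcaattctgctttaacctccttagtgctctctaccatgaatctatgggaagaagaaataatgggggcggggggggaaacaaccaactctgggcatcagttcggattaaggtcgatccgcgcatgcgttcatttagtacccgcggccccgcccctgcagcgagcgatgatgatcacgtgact

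The p53 targets Mdm2, Fas and Pmaip1 and p53 itself, named here after their values were seen, had no genotype call. No list of p53 targets was examined. Mdm2, which encodes the ubiquitin ligase that degrades p53, differed by -0.18 ± 0.16 in CD71-positive and 0.08 ± 0.16 in CD71-negative cells (adjusted p = 0.92 and 0.94). Fas, a death receptor, differed by -0.41 ± 0.23 and 0.03 ± 0.23 (adjusted p = 0.74 and 0.99), in the same order. Pmaip1, encoding the BH3-only protein NOXA, differed by 0.02 ± 0.02 in both (adjusted p = 0.92 and 0.77). Trp53 itself, encoding p53, varied widely, at 0.44 ± 0.55 and -0.74 ± 0.55 (adjusted p = 0.99 and 0.75).

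Bbc3 and Bmf differed between genotypes in opposite directions among CD71-negative cells. All 3 mutant arrays were above all 3 wild-type arrays for Bbc3 (0.67 ± 0.22, 95% interval 0.18 to 1.17, adjusted p = 0.27). For Bmf all 3 mutant arrays were below (-0.44 ± 0.14, 95% interval -0.75 to -0.14, adjusted p = 0.23). Without wild-type CD71-negative array 1, the highest for Bmf after normalization, the difference was -0.27 (adjusted p = 0.36). That array had the lowest mean signal (95.1) and the fewest detected genes (5893) of all arrays. Its deposited Bmf signal was the lowest of its group (110 against 164 and 183). Bmf passed with array weights (-0.46, adjusted p = 0.019), and its adjusted p over the 23 alternatives ran from 0.019 to 0.62. Bbc3 passed under none of 23 alternatives (adjusted p = 0.11 to 0.63), and its difference was 0.36 without mutant CD71-negative array 1. These differences use the same mutant CD71-negative arrays as the CD71 comparison in mutants.

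In CD71-positive cells neither gene was separated, at 0.08 ± 0.22 for Bbc3 and -0.02 ± 0.14 for Bmf, whose RNA was at background there. The change of the genotype difference between subsets was -0.60 ± 0.31 for Bbc3 (adjusted p = 0.93) and 0.42 ± 0.19 for Bmf (adjusted p = 0.88). It was -0.28 for Bbc3 without mutant CD71-negative array 1 and 0.25 for Bmf without wild-type CD71-negative array 1. No member was called for that change, 0.0121% of genes tested were, and no member reached an unadjusted p under 0.05.

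Prosurvival genes were not called between genotypes. Mcl1 differed by -0.23 ± 0.29 in CD71-positive cells (95% interval -0.88 to 0.41) and by -0.05 ± 0.29 in CD71-negative cells (95% interval -0.69 to 0.60). In CD71-positive cells the Mcl1 difference was -0.06 without wild-type array 3 and -0.13 without mutant array 1. Bcl2l1 was lower on every mutant CD71-positive array (-0.13 ± 0.10, adjusted p = 0.90) and overlapped in CD71-negative cells (0.14 ± 0.10, adjusted p = 0.75). The CD71-negative value of Bcl2l1 was 0.0034 without mutant CD71-negative array 1 and 0.24 without array 3 of that group. Bcl2 differed by -0.02 ± 0.02 and -0.01 ± 0.02 in CD71-positive and CD71-negative cells. Bcl2l11, Bid, Bad and Bak1 had differences between -0.16 and 0.10 in both subsets, all with adjusted p of 0.51 or more.

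**Figure D3:**
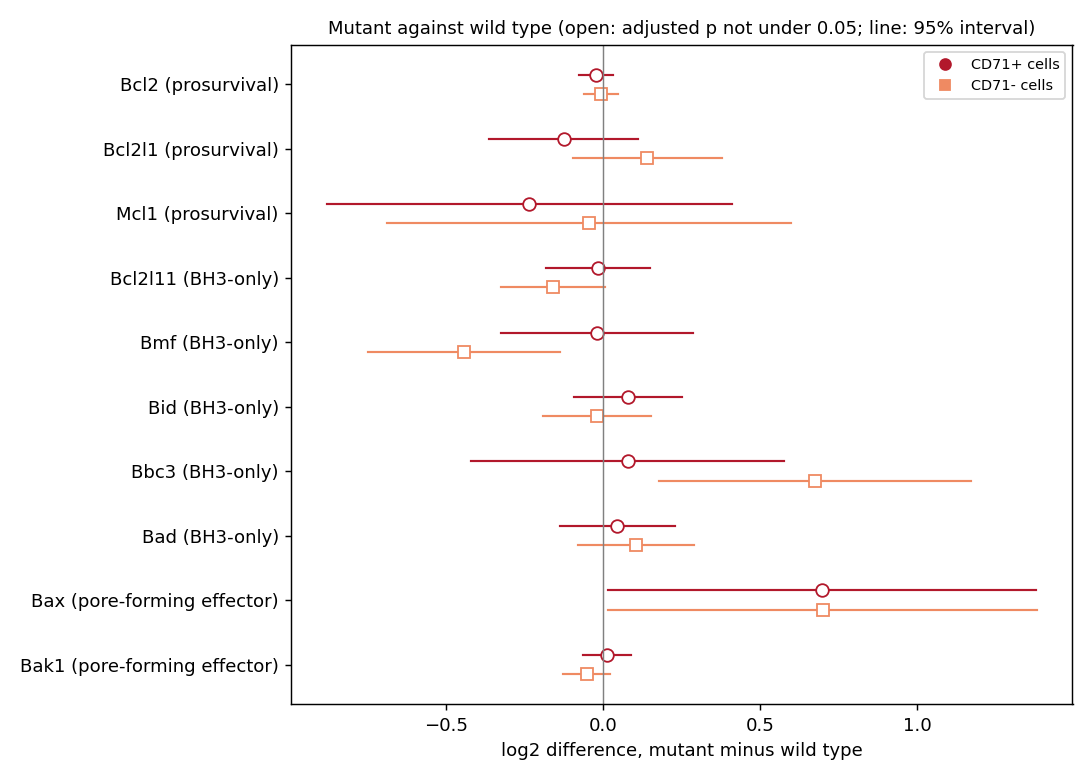
Log2 difference, mutant minus wild type, for each BCL2 family gene in CD71-positive (circles) and CD71-negative cells (squares), with 95% intervals. All symbols are open, since none had an adjusted p under 0.05. Bax lies right of 0 in both subsets at 0.70, while Bbc3 and Bmf lie on opposite sides of 0 in CD71-negative cells.

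Ordered by group mean, Mcl1, Bcl2, Bcl2l11 and Bmf ran from wild-type CD71-negative through mutant CD71-negative and wild-type CD71-positive to mutant CD71-positive cells. Along that order the step between the subsets was free of overlap for all 4 genes, and for Bmf so was the step between the CD71-negative groups. Bcl2l1 and Bbc3 were highest in mutant CD71-negative cells, separated from wild-type CD71-negative cells for Bbc3 and not for Bcl2l1. Bid was highest in mutant CD71-positive cells and overlapped there with wild-type CD71-positive cells. No neighbours were separated for Bad or Bak1. For Bax the order was mutant CD71-positive, mutant CD71-negative, wild-type CD71-positive and wild-type CD71-negative, with overlap within each genotype.

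Among the members, Bcl2l11 and Bmf tracked each other most closely (Pearson r = 0.95 over 12 arrays), followed by Bcl2 and Mcl1 and by Bcl2l1 and Bbc3 (r = 0.89 each). Bid ran against Mcl1 (r = -0.87) and Bcl2 (r = -0.86). These arrays fall into the CD71 subsets, and correlations within a subset were not computed. Mutant CD71-negative array 1 was the highest of the 12 for both Bcl2l1 and Bbc3 after normalization. In the deposited signal it was the lowest of its group for both genes (Bcl2l1 156 against 188 and 168). Among all genes tested, those most like Mcl1 were Rgl2 (r = 0.99) and 2310061F22Rik (r = 0.98), those most like Bcl2l1 Trp53bp2 (r = 0.98) and Rrad (r = 0.96), and those most like Bcl2 Rasa2 and Trim56 (r = 0.97 each). Med15 was most like Bcl2l11 (r = 0.97), Ercc2 (r = 0.99) and D2Ertd391e (r = 0.98) were most like Bmf, and Rcc1 and Ruvbl1 were most like Bid (r = 0.98 each). Bbc3 was nearest to Cd274 and Cbx8 (r = 0.96 each), Bax to Nubp2 and D14Ertd449e (r = 0.88 each), Bak1 to Card10 (r = 0.86) and Ccr7 (r = 0.81), and Bad to Serhl (r = 0.83) and 1810022C23Rik (r = 0.77).

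Over the 4 lists of further pathway genes, 10 of 43 tested were called with CD71 in each genotype (23.3%), against 28.8% of all genes tested in mutants and 25.1% in wild type. Of 6 tested genes among other BCL2 relatives, 1 fell in CD71-positive cells of each genotype. It was Bnip3l, a mitophagy receptor, at -1.26 ± 0.19 in mutants (adjusted p = 0.0011) and -1.14 ± 0.19 in wild type (adjusted p = 0.0022). Of 12 apoptosome, caspase and inhibitor genes, 2 rose and 2 fell in each genotype. Parp1, encoding a DNA repair enzyme that caspases cut, rose by 1.68 ± 0.12 in mutants and 1.03 ± 0.12 in wild type. Casp6 fell by 0.57 ± 0.16 and 0.70 ± 0.16, and Birc2, an inhibitor of apoptosis, fell by 1.11 ± 0.22 and 0.73 ± 0.22, mutants before wild type.

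Of 6 death receptor genes, 1 rose and 1 fell in mutants and 2 rose and 1 fell in wild type. Fas fell by 1.74 ± 0.23 in mutants (adjusted p = 0.00045) and by 1.30 ± 0.23 in wild type (adjusted p = 0.0026). Fadd, the adaptor between death receptors and caspase 8, rose by 0.29 ± 0.05 and 0.20 ± 0.05, and Ripk1, a kinase of the same receptors, rose by 0.10 ± 0.03 in wild type. Of 19 regulators and binding partners, 1 rose and 2 fell in mutants and 1 rose and 1 fell in wild type. E2f1, a cell cycle factor, rose by 2.64 ± 0.05 in mutants and 2.35 ± 0.05 in wild type, and Mdm2 fell in mutants by 0.49 ± 0.16 (adjusted p = 0.046). Between genotypes 1 gene of these lists was called, E2f1, higher in mutant CD71-positive cells by 0.50 ± 0.05 (adjusted p = 0.0067) and at 0.21 ± 0.05 in mutant CD71-negative cells (adjusted p = 0.13).

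The size of the members' CD71 differences depended on how background was treated. With background set from the genes least likely to be detected, an alternative chosen after seeing the data, Bid was 1.05 higher in mutants and 0.84 higher in wild type. Bmf was then -1.34 in mutants (adjusted p = 0.00018) and -1.93 in wild type, Bcl2l11 -0.71 and -0.98, and Bcl2 -0.60 and -0.49. Mcl1, well above background, was -1.38 and -1.22. The signs of these CD71 differences were the same as with neqc for all 10 members.

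**Figure D4:**
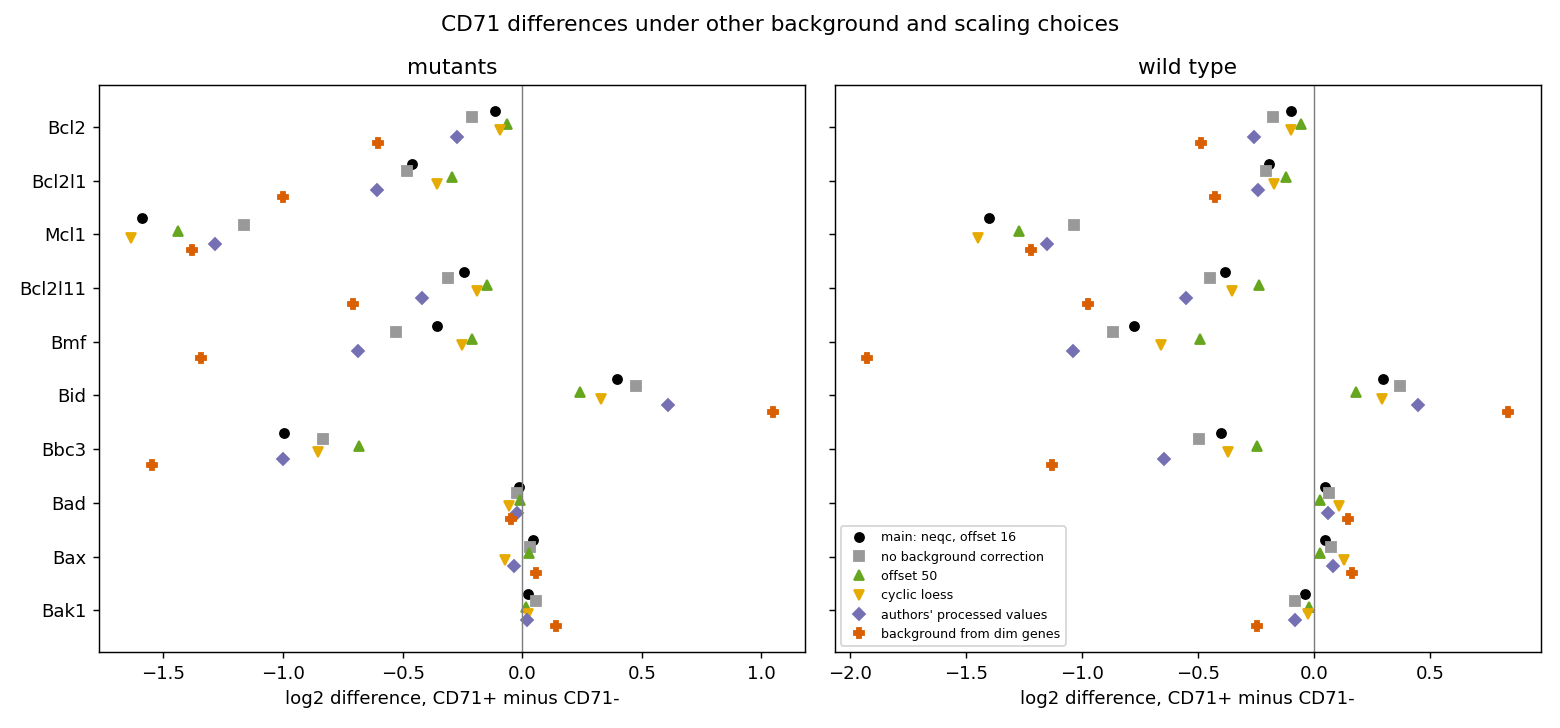
Log2 difference, CD71-positive minus CD71-negative, for each BCL2 family gene in mutants (left) and wild type (right) under 6 treatments of background and scaling. Points on one row are the same gene. Dim genes such as Bmf, Bid and Bcl2 spread widely with the largest values for background set from dim genes, and Mcl1, Bcl2l1, Bcl2l11, Bbc3, Bmf, Bcl2 and Bid stay on 1 side of 0.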

How the data were processed

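Total RNA (80 ng) was amplified, biotin-labelled and hybridised to 1-colour arrays, per the labels' protocols. Per the file headers, the deposited non-normalized values are an intensity on a linear scale and, beside it, a detection p-value, in 1 row per symbol without probe identifiers. The combination of probes and the array's genome build are not given in the sources used here. A further deposited table holds the authors' processed intensity values for 18132 symbols, and the submitters' processing notes name RMA. Those are linear and uncentred and rank genes as the signal does (rank correlation 1, column medians 77.2 to 78.7), with the background step unknown.

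Signals were processed by limma's neqc (limma 3.58.1, R 4.3.3): background inferred through the detection p-values, an offset of 16, quantile normalization and log2. The offset understates changes of dim genes. Genes with detection p under 0.05 on at least 3 of 12 arrays were tested (8247). A single lmFit and eBayes fit covered the 4 groups, with two-sided moderated tests adjusted by Benjamini and Hochberg over all genes tested within each of 6 contrasts. The fit was tested on simulated data. The number of arrays limits the precision. Where no array of a group detected a gene, the fold was taken against the higher of its own signal and the lowest detected signal. For Bmf in mutants this equalled the fitted fold, which carries the error of the fit.

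The members and lists were chosen with earlier results of these data known. Named are all members, Ncaph2 and Tfrc, the up to 3 called genes of each other list with the smallest p-values per contrast, and the 2 genes whose values correlate best with each member's. Some genes that this rule takes are left out of the text, and a few others (p53 genes and markers) are named beyond it, after their values were seen. Members' upstream windows came from RefSeq (GRCm38.p6) and were searched on both strands for 10 motifs. All 10 members had at least 1 window.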

Additional observations from a re-analysis of the deposited data

How the results depend on the processing

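No member's called difference changed sign under any alternative run. Calls for Mcl1, Bcl2l11 and Bmf in wild type and for Mcl1 and Bid in mutants passed under all 23 alternatives, and the other calls were each lost under at least 1. Members called with CD71 numbered 4 to 8 in mutants and 4 to 7 in wild type, and 5 to 7 and 4 to 7 when 1 array was left out. The 8 came with array weights, which called 4358 of all 8247 genes tested in mutants. Between genotypes the count was 0 except with array weights, which called 1 member in CD71-negative cells (Bmf) and 2 averaged over subsets (Bax, and Bmf at adjusted p = 0.042). In these comparisons array weights called 461 and 554 of all 8247 genes tested, against 35 and 75 in the main fit. The weights ran from 0.408 for mutant CD71-negative array 1 to 4.99 for mutant CD71-positive array 1.

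Whether replicate numbers pair the samples was not settled. The numbers used here are those of the sample descriptions. The sample titles number the CD71-positive arrays on from the CD71-negative ones, so no number repeats within a genotype. Same-numbered arrays of the CD71 subsets correlated at 0.51, -0.30 and 0.50 in mutants and -0.41, 0.39 and 0.26 in wild type. Arrays with different numbers correlated at -0.61 to 0.41 in mutants and -0.61 to 0.50 in wild type. With so few arrays per group and signs mixed in both sets, these values neither show nor exclude pairing. With the number as a replicate block, the members called stayed at 6 in mutants, 5 in wild type and 0 between genotypes, and genes called for genotype averaged over subsets numbered 39 against 75.

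Over all genes, genotype calls were less stable than CD71 calls. In CD71-positive cells 35 became 6 with cyclic loess (3 higher and 3 lower, against 24 and 11), 16 without background correction or without a filter, 22 with the authors' values, 2 with only those groups fitted, 207 with array weights and 14 to 60 with 1 array left out. In CD71-negative cells 35 became 8, 44, 20, 55, 2, 461 and 14 to 121 under the same alternatives, and averaged over subsets 75 became 18 with cyclic loess, 35 without a filter, 554 with array weights and 27 to 133 with 1 array left out. For the change of the genotype difference 1 became 45 with array weights and 0 to 5 with 1 array left out. CD71 calls in mutants were 2375 against 4358 with array weights. The causes were not tested. The files name no slide, so a slide block was not run, and fitting only the groups compared does not apply to the average or the change. Only Mcl1, Bax and Bbc3 had a highest group mean more than 1 above the level of undetected genes. Signals near background limit the other members. They also limit Bbc3 in CD71-positive cells, where its means were 5.63 in mutants and 5.55 in wild type.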
